A study of Homo sapiens with 18 samples.

Results

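The insulin-like growth factor (IGF) axis of these cells was read from 10 genes. They are 10 of the 42141 genes in the deposited tables and were taken by name: the ligand IGF2, the imprinted RNA H19 beside it, the proteases PAPPA and PAPPA2, and the binding proteins IGFBP2, IGFBP3, IGFBP4, IGFBP5, IGFBP6 and IGFBP7. IGF2, H19 and PAPPA2 were chosen by their measured levels, which had been noted as nearly on or off between groups, so their levels are given as a description and carry no test. The other 7 genes, PAPPA and the 6 binding proteins, were tested in a fit of all genes.

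The RNA came from acini, hollow spheres that mammary epithelial cells form in a basement membrane gel, of MCF-10A.B2, a derivative of the human non-tumour mammary line MCF-10A that carries a chimeric HER2 receptor. Wild-type (WT) and JNK-knockout (JNKKO) cells of this background, so all groups with the chimera, were grown for 21 days. From day 7, EGF was taken out and replaced for 14 days by ethanol (control), by the B/B homodimerizer, a drug that pairs the chimeric receptor (dimerizer), or by the homodimerizer with TGF-β1. There were 3 libraries in each of 6 groups, 18 in all. Every group was kept in horse serum, hydrocortisone, cholera toxin and insulin, and insulin itself acts through the receptors of this pathway. The sources used here do not say which JNK genes were edited, whether JNKKO is 1 clone, or if libraries of 1 group are separate cultures. Each p-value therefore measures the spread between these libraries, which may be technical.

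IGF2 is a secreted growth factor that signals mainly through IGF1R and the insulin receptor INSR, while IGF2R, which lacks a kinase, takes it up for breakdown. In tissue most IGF is held by binding proteins, which both store it and keep it from its receptors, and IGFBP7 binds IGF only weakly. The pappalysins PAPPA and PAPPA2 are secreted metalloproteases that cut some of these binding proteins, PAPPA mainly IGFBP4 and PAPPA2 mainly IGFBP3 and IGFBP5, which frees the ligand. H19 is a long noncoding RNA from the same imprinted cluster as IGF2, usually expressed from the other parental copy, and its transcript holds the hairpin of the microRNA miR-675.

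The sequences that follow are shown because they set side by side the start regions of the pair of proteases, whose levels parted between groups, and of IGFBP2 and IGFBP5, which lie next to each other on chromosome 2 and both fell with TGF-β1. Each is the stretch from 250 to 11 bases before the RefSeq start site in GRCh38.p14, printed in the direction of the gene, with matches to the letters searched in capitals. PAPPA2 is chr1:176462925-176463164 on the plus strand, PAPPA is chr9:116153541-116153780 on the plus strand, IGFBP2 is chr2:216632578-216632817 on the plus strand, and IGFBP5 is chr2:216695560-216695799 on the minus strand.
PAPPA2: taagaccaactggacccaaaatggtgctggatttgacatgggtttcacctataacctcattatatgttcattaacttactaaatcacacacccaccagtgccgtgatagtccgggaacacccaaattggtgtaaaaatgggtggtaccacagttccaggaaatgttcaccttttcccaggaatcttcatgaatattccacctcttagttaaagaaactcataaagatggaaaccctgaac
PAPPA: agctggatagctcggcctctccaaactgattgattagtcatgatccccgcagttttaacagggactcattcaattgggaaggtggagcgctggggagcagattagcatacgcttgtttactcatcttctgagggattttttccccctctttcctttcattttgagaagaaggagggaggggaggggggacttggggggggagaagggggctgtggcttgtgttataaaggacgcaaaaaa
IGFBP2: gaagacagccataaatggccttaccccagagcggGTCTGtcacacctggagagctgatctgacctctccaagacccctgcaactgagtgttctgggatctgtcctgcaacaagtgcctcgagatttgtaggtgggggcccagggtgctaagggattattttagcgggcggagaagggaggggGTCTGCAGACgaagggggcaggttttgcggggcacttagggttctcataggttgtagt
IGFBP5: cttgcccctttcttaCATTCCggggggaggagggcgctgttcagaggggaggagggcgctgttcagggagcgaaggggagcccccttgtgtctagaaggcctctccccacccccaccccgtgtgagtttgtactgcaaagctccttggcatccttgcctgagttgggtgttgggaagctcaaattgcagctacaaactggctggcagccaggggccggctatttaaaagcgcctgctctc
The short motifs searched on both strands, chosen after the values were known, were TGANTCA for AP-1, the factor that JNK acts on through JUN, CAGAC for SMAD proteins, which carry the TGF-β signal, and GGAATG for TEAD proteins. The RefSeq table held 8 of the 10 genes, without IGF2 and IGFBP7, as 10 windows. TGANTCA was in none of the 10 windows, against 6.433% of 35116 windows of the same length. CAGAC or its reverse GTCTG stood 3 times in the printed IGFBP2 window, at -216 to -212, -68 to -64 and -63 to -59, the last pair side by side, once in a downstream IGFBP2 window and once in the H19 window at -219 to -215, against 36.88% of all windows with at least 1 match. CATTCC, the reverse of GGAATG, was in the IGFBP5 window at -235 to -230, and GGAATG in the IGFBP6 window at -101 to -96, against 11.49% of all windows. Of the 10 windows, 3 overlap a GENCODE exon of their own gene: those of H19 and IGFBP6 and a second one of IGFBP2, none of them printed. No match overlapped another motif, and PAPPA and PAPPA2 had no match to any of them in these windows.

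H19 is also the source of the miRNA arms printed here, with the seed, bases 2 to 8, in capitals, at chr11:1996800-1996822 and chr11:1996768-1996787 on the minus strand of GRCh38.p14, from RefSeq. The 2 arms have different seeds.
hsa-miR-675-5p: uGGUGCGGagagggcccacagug
hsa-miR-675-3p: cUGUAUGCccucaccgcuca
MIR675 had 0 counts in all 18 libraries, which were made from mRNA enriched on oligo(dT) beads and do not measure mature miRNAs.

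Library totals ran from 24243537 to 34499651 expected counts, so 1 CPM, a read count scaled to library size, stands for about 24 to 34 counts. The 6 basal mammary markers, such as KRT5 and KRT14, were all at 1 CPM or more in every group, with a summed level of 9362 to 14280 CPM per library, and the 7 luminal markers summed to 310 to 612 CPM. MAPK9, which encodes JNK2, was lower in JNKKO than in WT under control by 0.49 ± 0.04 on the log2 scale (edgeR adjusted p = 2.8e-10). MAPK8, which encodes JNK1, was higher there by 0.47 ± 0.06 (adjusted p = 5.5e-08), but lower in JNKKO with dimerizer and TGF-β1 (adjusted p under 0.05). Transcript levels alone thus do not check the knockout. ERBB2, the gene of HER2, was lower in JNKKO than in WT in control and with dimerizer and TGF-β1 (edgeR adjusted p under 0.05). With dimerizer alone ERBB2 also differed between genotypes at this threshold, and its response to dimerizer was not called as different between them. Its part in the results was not tested. For replicate 3 of WT with dimerizer and TGF-β1 the genotype tag reads JNK knockout, against its title. It was grouped by its title, and most results that use it are also given without it. It is called the library in doubt. Its H19 level was 1.42 CPM, against 1.12 and 0.696 CPM in the other WT libraries of its group and 12.3 to 15.5 CPM in JNKKO. Its IGFBP3 level was 23.1 CPM, against 22.2 and 23.4 CPM and 10.3 to 12.2 CPM. Its share of counts from mitochondrial genes was 8.61%, against 9.88% and 9.08% and 5.24% to 5.56%. In these values it lay with the other WT libraries, and its genotype was not tested. The share of counts from mitochondrial genes was 15.1% to 15.3% in WT control, 5.24% to 5.56% in JNKKO dimerizer with TGF-β1 and 8.61% to 10.9% elsewhere, so it moved with the groups and cannot be told apart from them. In bulk RNA, fewer cells of a type and less RNA per cell cannot be told apart.

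IGF2 (ENSG00000167244, chr11:2129112-2149603, minus strand) was read in the libraries with TGF-β1 and was at or near 0 in all others. The 3 WT libraries with dimerizer and TGF-β1 held 4.26, 8.92 and 7.25 CPM, and the 3 JNKKO libraries 10.9, 9.73 and 13.1 CPM. The other 12 libraries held 0 to 2 counts each: WT control had 2, 0 and 0, WT dimerizer 0, 0 and 1, JNKKO control 2, 1 and 0, and the 3 JNKKO dimerizer libraries 0 each. Both TGF-β1 groups lay far above the rest. Between these groups, in CPM, every JNKKO library was above every WT library. This held with or without the WT library whose tag is in doubt, at 7.25 CPM. Summed over 3 libraries and scaled for depth, WT held 645 counts with TGF-β1 and 1 without, a ratio of 674 with a 95% exact interval of 121 to 26671. This ratio rests on 1 count and was 443 without WT dimerizer replicate 2. JNKKO held 964 against 0, which is at least 320-fold higher against a floor of 3 counts over the group. With TGF-β1, JNKKO was 1.66-fold above WT (interval 1.5 to 1.84), and 1.73-fold (1.54 to 1.94) without the WT library in doubt. The fold was 1.39 (1.25 to 1.55) without WT dimerizer with TGF-β1 replicate 1 and 1.95 (1.73 to 2.20) without replicate 2. These intervals and floors cover counting error only. Per length, the level remained low, at 2.48 ± 1.02 TPM (transcript share scaled for length; SD, n = 3) in WT and 4.32 ± 0.88 TPM in JNKKO. On the TPM scale the groups overlapped, with JNKKO replicate 2 at 3.3 TPM and WT replicate 2 at 3.39 TPM. INS-IGF2, a read-through gene over the same locus, was at 0 in every library. How strand was used is not stated in the sources here, and reads from IGF2 and from its antisense partner could not be told apart.

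The ratio of expected count to TPM gives the mean length of the transcripts of a gene, weighted by their TPM and calibrated on genes with 1 transcript. For IGF2 this mean was 4114 to 4792 bases in WT and 3534 to 4328 bases in JNKKO with TGF-β1, where the 8 transcripts in the tables span 934 to 5585 bases. Reads were thus assigned mostly to the longer forms in all 6 libraries, and the groups overlapped.

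H19 (ENSG00000130600, chr11:1995176-2001470, minus strand, 127.6 kb from IGF2) had a different order. Its highest values were in JNKKO control, at 125, 105 and 102 CPM, against 6.95, 6.13 and 5.78 CPM in WT control. With dimerizer JNKKO held 20.6, 14.7 and 22.6 CPM and WT 4.88, 10.8 and 9.21 CPM. With dimerizer and TGF-β1 JNKKO held 15.5, 14.4 and 12.3 CPM and WT 1.12, 0.696 and 1.42 CPM. JNKKO lay above WT under each treatment with no overlap, by 17.6-fold in control (interval 16.2 to 19.2), 2.27-fold with dimerizer (2.09 to 2.47) and 13.0-fold with TGF-β1 (10.6 to 16.0). The steps within a genotype differed: in JNKKO, H19 was 5.79-fold lower with dimerizer than in control (5.49 to 6.10) and its dimerizer and TGF-β1 groups overlapped, while in WT the control and dimerizer groups overlapped and the level with TGF-β1 was 7.77-fold lower than with dimerizer (6.33 to 9.62). Without the WT library in doubt, this step was 9.22-fold (7.06 to 12.2) and JNKKO with TGF-β1 was 15.4-fold above WT (11.8 to 20.4). The 2.27-fold moved to 1.92 without WT dimerizer replicate 1 and to 2.65 without WT dimerizer replicate 2. The 5.79-fold moved to 5.11 without JNKKO dimerizer replicate 2 and to 6.43 without JNKKO dimerizer replicate 3. The intervals for H19, and those for PAPPA2 and IGFBP5 below, cover counting error only and not the spread between libraries. From high to low the order of the groups was JNKKO control, JNKKO dimerizer, JNKKO dimerizer with TGF-β1, WT dimerizer, WT control and WT dimerizer with TGF-β1, and both JNKKO groups with dimerizer overlapped each other, as did WT dimerizer and WT control.

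The IGF2 and H19 rows did not keep a fixed relation. On the TPM scale the ratio of IGF2 to H19 was 1.77, 6.92 and 2.71 in the WT libraries with TGF-β1 and 0.450, 0.348 and 0.571 in the JNKKO ones. IGF2 thus exceeded H19 in all 3 WT libraries and stayed under it in all 3 JNKKO libraries. In the 12 libraries without TGF-β1 the ratio was at most 0.00495.

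**Figure D1:**
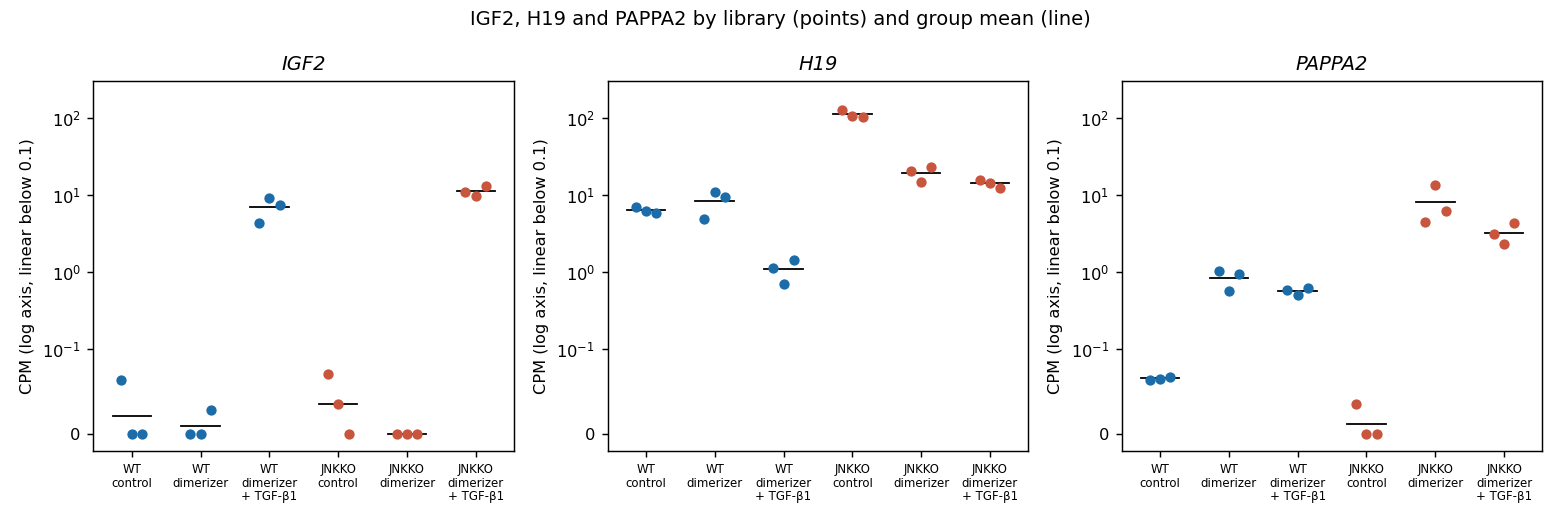
CPM (log axis, linear below 0.1) of IGF2, H19 and PAPPA2 in each library (points) with the group mean (line), WT in blue and JNKKO in red. IGF2 stands above 4 CPM in the 6 libraries with TGF-β1 and near 0 in the other 12, H19 is highest in JNKKO control at 102 to 125 CPM, and PAPPA2 is highest in JNKKO dimerizer at 4.40 to 13.3 CPM.

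PAPPA2 (ENSG00000116183, chr1:176463171-176845605, plus strand) was close to absent in both control groups and present in all groups with dimerizer. WT control held 2 counts in each library and JNKKO control 1, 0 and 0 counts. With dimerizer WT held 1.03, 0.554 and 0.927 CPM, and JNKKO 4.40, 13.3 and 6.08 CPM. With dimerizer and TGF-β1 WT held 0.574, 0.497 and 0.617 CPM, and JNKKO 3.05, 2.28 and 4.32 CPM. The WT levels were low, at 19 to 33 counts and 0.08 to 0.14 TPM per library with dimerizer. With TGF-β1 added they were 15 to 20 counts and 0.08 to 0.1 TPM. The highest library of all, in JNKKO dimerizer, held 1.71 TPM. Each JNKKO dimerizer library was above each WT dimerizer library, with a ratio of summed counts of 9.97 (interval 7.93 to 12.7). JNKKO dimerizer replicate 2 stood above the other 2 libraries of its group, and without it the group mean of 7.94 CPM was 5.24 CPM and the ratio to WT dimerizer 6.46 (5.04 to 8.34). The WT ratio of dimerizer to control was 12.8 (5.62 to 35.8), resting on 6 counts in control, and the JNKKO ratio was 685 (123 to 27107), resting on 1 count in control. The JNKKO ratio was 444 without JNKKO dimerizer replicate 2 and 451 without JNKKO control replicate 2. Adding TGF-β1 went with lower levels in JNKKO, 2.59-fold (2.25 to 2.99), where the groups did not overlap but came within 4.40 and 4.32 CPM of each other, and in WT the groups overlapped. Without JNKKO dimerizer replicate 2 the JNKKO fold was 1.68 (1.42 to 1.99).

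PAPPA (ENSG00000182752, chr9:116153804-116402322, plus strand), the other pappalysin, was low throughout, at 5 to 88 counts per library and 0.020 to 0.38 TPM. WT libraries held 0.349, 0.161 and 0.537 CPM in control, 1.03, 0.992 and 1.18 CPM with dimerizer, and 1.75, 2.02 and 1.45 CPM with TGF-β1 added. In JNKKO the values were 0.704, 0.812 and 0.843 CPM under control, 0.683, 1.12 and 0.805 CPM with dimerizer, and 2.56, 2.95 and 2.81 CPM with TGF-β1 added. The 3 WT groups did not overlap, and in JNKKO only the TGF-β1 group stood apart. PAPPA rose with dimerizer in WT by 1.61 ± 0.30 on the log2 scale (quasi-likelihood test of edgeR, adjusted p after Benjamini and Hochberg = 3.7e-05), and its JNKKO difference was 0.16 ± 0.28 (adjusted p = 0.69). With TGF-β1 it rose by 0.70 ± 0.23 in WT (adjusted p = 0.010) and by 1.65 ± 0.24 in JNKKO (adjusted p = 6.6e-07). Without WT dimerizer with TGF-β1 replicate 2, the WT rise was 0.58 (adjusted p = 0.062).

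The proteases changed places between groups. On the TPM scale the ratio of PAPPA2 to PAPPA was 6.88, 13.2 and 8.56 in JNKKO dimerizer, 0.868 to 1.74 in JNKKO dimerizer with TGF-β1, 0.667 to 1.08 in WT dimerizer, 0.286 to 0.5 in WT dimerizer with TGF-β1, 0.333 to 0.5 in WT control and at most 0.125 in JNKKO control. The ratios in the control groups rest on 0 to 2 PAPPA2 counts per library. In WT control they divide rounded TPM values of 0.01 to 0.02 for PAPPA2 by 0.02 to 0.06 for PAPPA. JNKKO dimerizer was the group in which PAPPA2 exceeded PAPPA several-fold in each library.

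Dimerizer without TGF-β1 was followed by different sets in the 2 genotypes. In WT, IGFBP2, IGFBP3, IGFBP4 and the protease gene PAPPA rose and IGFBP7 fell. In JNKKO, IGFBP2, IGFBP3 and IGFBP5 fell and IGFBP6 and IGFBP7 rose.

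IGFBP2 (ENSG00000115457, chr2:216632828-216664436, plus strand), a carrier abundant in fetal and tumour tissue, had WT values of 5.43, 6.68 and 5.71 CPM under control and 11.6, 14.2 and 11.8 CPM under dimerizer. In JNKKO it held 10.7, 13.3 and 11.8 CPM in control and 5.94, 5.81 and 6.37 CPM with dimerizer. The values of the 2 genotypes were thus mirrored, with JNKKO control overlapping WT dimerizer and JNKKO dimerizer overlapping WT control. The log2 difference was 1.08 ± 0.13 in WT (edgeR adjusted p = 4.7e-08) and -0.98 ± 0.13 in JNKKO (adjusted p = 7.7e-07).

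IGFBP3 (ENSG00000146674, chr7:45912245-45921874, minus strand), the main carrier of IGF in blood, went from 1.87, 1.0 and 1.38 CPM in WT control to 2.52, 2.30 and 2.47 CPM with dimerizer. In JNKKO the values were 1.55, 1.55 and 2.15 CPM under control and 0.897, 0.703 and 0.933 CPM with dimerizer. In each genotype the groups did not overlap, and they moved in opposite directions, by 0.77 ± 0.17 in WT (edgeR adjusted p = 0.00032) and -1.05 ± 0.21 in JNKKO (adjusted p = 0.00022).

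IGFBP5 (ENSG00000115461, chr2:216672105-216695525, minus strand), whose gene ends 7.668 kb from the end of IGFBP2, had its highest values in JNKKO control, at 5.42, 3.85 and 3.45 CPM. JNKKO dimerizer libraries held 0.769, 0.415 and 0.579 CPM, a fall of 2.87 ± 0.31 on the log2 scale (edgeR adjusted p = 2.8e-08). In WT the values were 0.952, 0.904 and 0.873 CPM under control and 0.697, 0.963 and 1.46 CPM with dimerizer, which overlapped.

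IGFBP6 (ENSG00000167779, chr12:53097436-53102345, plus strand), a carrier with a preference for IGF2, went from 4.75, 4.38 and 5.17 CPM in JNKKO control to 14.3, 10.2 and 15.6 CPM with dimerizer, a rise of 1.49 ± 0.23 (edgeR adjusted p = 0.00017). In WT it held 2.92, 2.52 and 4.10 CPM in control and 2.92, 3.21 and 3.51 CPM with dimerizer, and the groups overlapped. IGFBP7 (ENSG00000163453, chr4:57030773-57110385, minus strand) had WT values of 9.84, 11.8 and 11.2 CPM under control and 7.90, 7.70 and 9.02 CPM with dimerizer, and in JNKKO 4.68, 5.97 and 6.97 CPM and 9.70, 6.93 and 9.37 CPM. It fell by 0.41 ± 0.13 in WT (edgeR adjusted p = 0.013) and rose by 0.55 ± 0.15 in JNKKO (adjusted p = 0.0067), where 1 dimerizer library overlapped control. The WT fall missed the threshold without WT control replicate 2 (adjusted p = 0.059), without WT dimerizer replicate 2 (adjusted p = 0.054) and on log2(TPM + 1) with limma (adjusted p = 0.096).

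IGFBP4 (ENSG00000141753, chr17:40443461-40457731, plus strand), the main target of PAPPA, rose with dimerizer in WT from 0.635, 0.807 and 0.571 CPM to 1.13, 1.14 and 0.927 CPM, by 0.66 ± 0.23 (edgeR adjusted p = 0.016). Without WT control replicate 3 the adjusted p was 0.071, and without WT dimerizer replicate 2 it was 0.053. JNKKO libraries held 2.18, 1.69 and 1.65 CPM and then 2.43, 2.11 and 2.64 CPM, a difference of 0.37 ± 0.19 (adjusted p = 0.11). Of the members, 4 of 7 tested members rose and 1 fell with dimerizer in WT, where 30.3% of all 16911 genes tested rose and 25.6% fell. In JNKKO 2 of 7 rose and 3 fell, against 22.5% and 17.9% of all genes. The sum of the 5 immune markers moved with the JNKKO groups, from 9.74 to 11.3 CPM in control to 45.2 to 50.01 CPM with dimerizer. Of the 3 tested, only CD68 was called, as higher, and the median log2 difference was -0.45. CD68, which is not restricted to immune cells, held 45.7 CPM of the sum, while PTPRC was at 0.263 CPM and CD3E at 0.0142 CPM. The part of these markers in the result was not tested. The sum of the 4 endothelial markers, 2 of them at 1 CPM or more, went the other way with dimerizer. This sum went from 42.7 to 44.6 CPM to 26.5 to 28.1 CPM in WT and from 35.7 to 38.4 CPM to 17.3 to 19.4 CPM in JNKKO. Of the 2 tested, 1 was called higher and 1 lower in WT, and 2 lower in JNKKO. The sum of the fibroblast markers went from 32.8 to 34.8 CPM in WT control to 19.5 to 20.03 CPM in WT dimerizer, with 1 of 7 at 1 CPM or more in both, and from 24.9 to 30.6 CPM to 22.3 to 24.6 CPM in JNKKO, with 1 and then 2 at that level. Of the 3 tested, only DCN was called in WT, as lower, and 1 was called higher and 1 lower in JNKKO. The part of these in the result was not tested either. The number of WT calls among the 7 was 3 without WT dimerizer replicate 2.

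**Figure D2:**
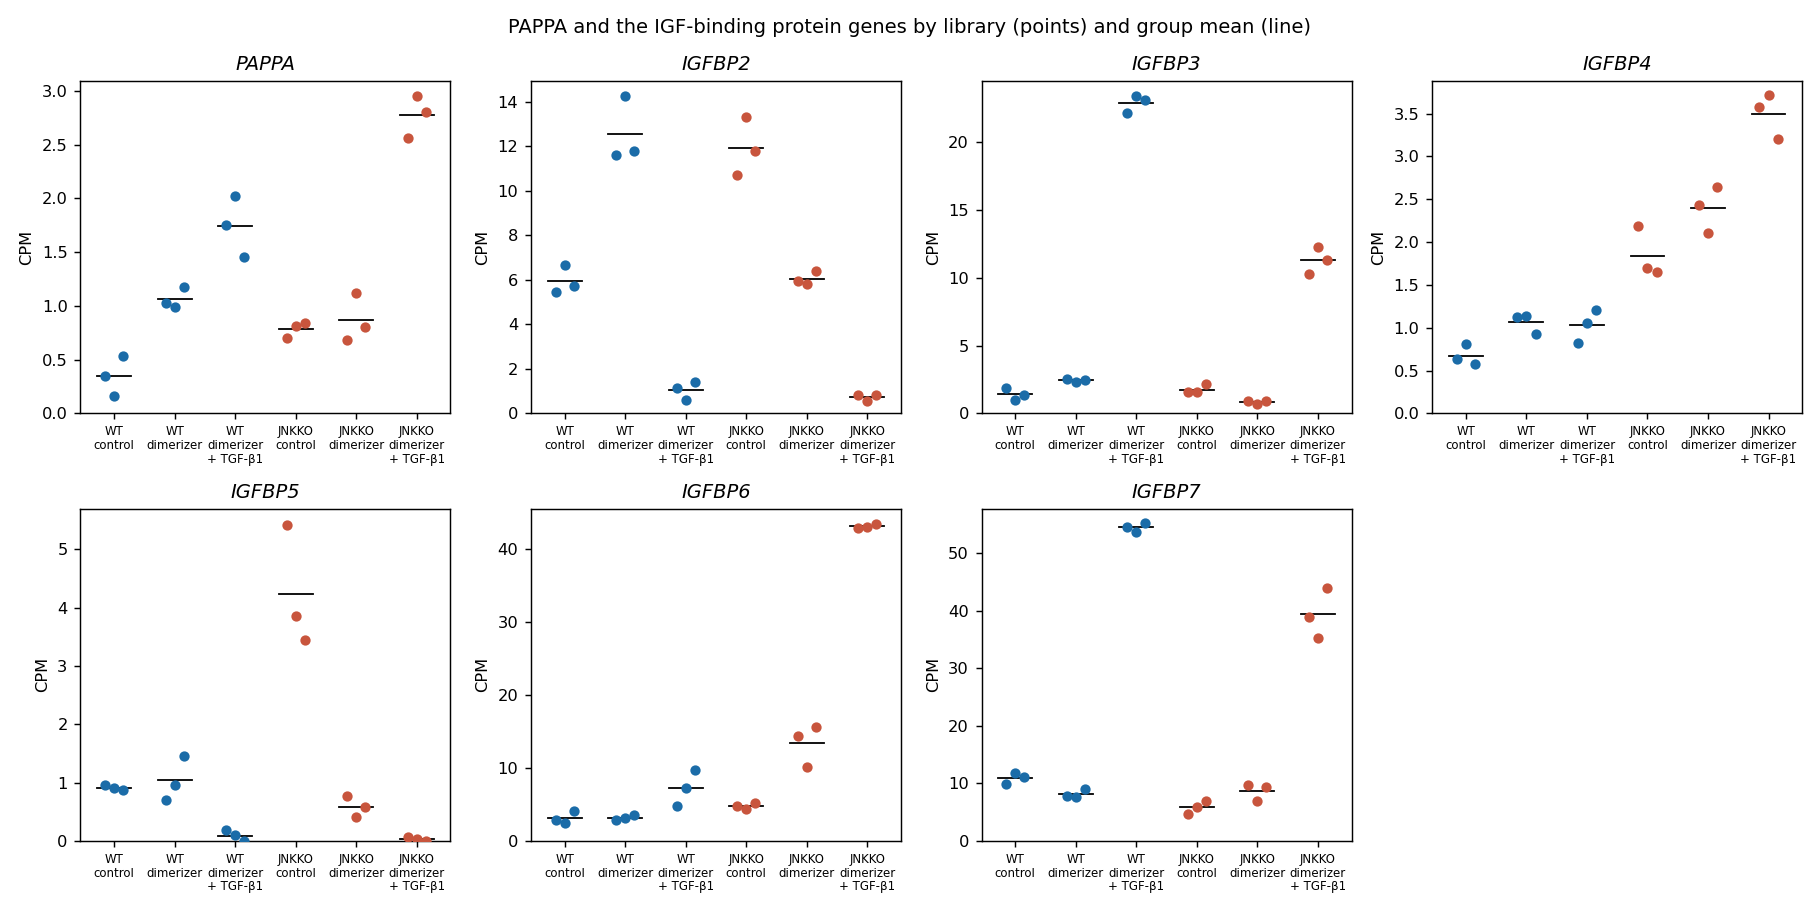
CPM of PAPPA and the 6 binding protein genes in each library (points) with the group mean (line), each panel on its own linear axis from 0, WT in blue and JNKKO in red. IGFBP2 is mirrored between genotypes before TGF-β1 and near 1 CPM with it, while IGFBP3, IGFBP6 and IGFBP7 are, within each genotype, highest in the TGF-β1 group.

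The differences between genotypes in the response to dimerizer were tested as such. The interaction was lower in JNKKO for IGFBP2 (-2.06 ± 0.18, edgeR adjusted p = 7.1e-10), IGFBP3 (-1.82 ± 0.27), IGFBP5 (-3.08 ± 0.45) and PAPPA (-1.45 ± 0.41), and higher for IGFBP6 (1.46 ± 0.38) and IGFBP7 (0.97 ± 0.20), with adjusted p of at most 0.0072 for these 5. IGFBP4 did not pass, at -0.28 ± 0.29 (adjusted p = 0.47). That is 4 of 7 lower and 2 of 7 higher, against 21.2% and 21.4% of all genes. PAPPA did not pass on log2(TPM + 1) with limma (adjusted p = 0.15). WT control and JNKKO control enter these interactions with opposite sign, and they differ in mitochondrial share, whose part in the result was not tested.

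TGF-β1 added to dimerizer was followed by falls of IGFBP2 and IGFBP5 and rises of IGFBP3, IGFBP6 and IGFBP7 in both genotypes. IGFBP2 held 1.15, 0.597 and 1.42 CPM in WT and 0.841, 0.537 and 0.827 CPM in JNKKO with TGF-β1, log2 differences from dimerizer of -3.56 ± 0.17 and -3.04 ± 0.20 (edgeR adjusted p = 1.1e-16 and 2.9e-13). Its neighbour IGFBP5 held 6.4, 3.0 and 0 counts in WT and 2, 1 and 0 counts in JNKKO. Summed and scaled, IGFBP5 was 11.3-fold lower in WT (interval 5.72 to 25.3) and 16.4-fold lower in JNKKO (5.29 to 82.3). These folds rest on few counts: the WT value was 22.1 without TGF-β1 replicate 1 and 7.45 without TGF-β1 replicate 3, and the JNKKO value 32.9 without TGF-β1 replicate 1. For IGFBP5 the fitted fall passed the test in both (adjusted p = 4.2e-07 and 1.3e-05). On log2(TPM + 1) with limma, which shrinks the change of low genes, the JNKKO fall did not pass (adjusted p = 0.075).

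IGFBP3 reached 22.2, 23.4 and 23.1 CPM in WT and 10.3, 12.2 and 11.3 CPM in JNKKO with TGF-β1. The rise from dimerizer was 3.23 ± 0.12 on the log2 scale in WT (edgeR adjusted p = 1.4e-19) and 3.74 ± 0.16 in JNKKO (adjusted p = 4.2e-18), and the WT and JNKKO libraries did not overlap. IGFBP7 reached 54.6, 53.6 and 55.2 CPM in WT and 38.9, 35.2 and 44.0 CPM in JNKKO, rises of 2.73 ± 0.11 and 2.19 ± 0.12 (adjusted p = 2.4e-13 and 1.3e-11).

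IGFBP6 held 4.77, 7.33 and 9.75 CPM in WT and 42.8, 42.9 and 43.4 CPM in JNKKO with TGF-β1. The JNKKO libraries were close to each other and far above WT. The rise from dimerizer was 1.17 ± 0.26 in WT (edgeR adjusted p = 0.0012) and 1.69 ± 0.18 in JNKKO (adjusted p = 2.1e-06). IGFBP4 held 0.816, 1.06 and 1.20 CPM in WT, a difference of -0.05 ± 0.21 (adjusted p = 0.85), and 3.57, 3.72 and 3.20 CPM in JNKKO, a rise of 0.55 ± 0.17 (adjusted p = 0.0074).

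Of the 7 tested members, 4 rose and 2 fell with TGF-β1 in WT, against 33.4% and 31.8% of all genes, and 5 rose and 2 fell in JNKKO, against 30.5% and 30.3%. The WT counts were also 4 and 2 without the library whose genotype tag contradicts its title. Without it the WT differences were -3.83 for IGFBP2, 3.22 for IGFBP3, -0.19 for IGFBP4, -2.86 for IGFBP5, 0.89 for IGFBP6, 2.71 for IGFBP7 and 0.81 for PAPPA. Markers of fibroblasts moved with these results: the 7 marker genes summed to 19.5 to 20.03 CPM in WT dimerizer and 127 to 175 CPM with TGF-β1, and to 22.3 to 24.6 and 197 to 228 CPM in JNKKO. At most 3 of the 7 markers reached 1 CPM, with COL6A3 and DCN holding most of the sum, and LUM and PDGFRA stayed under 1 CPM in every group mean. Their part in the result was not tested.

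**Figure D3:**
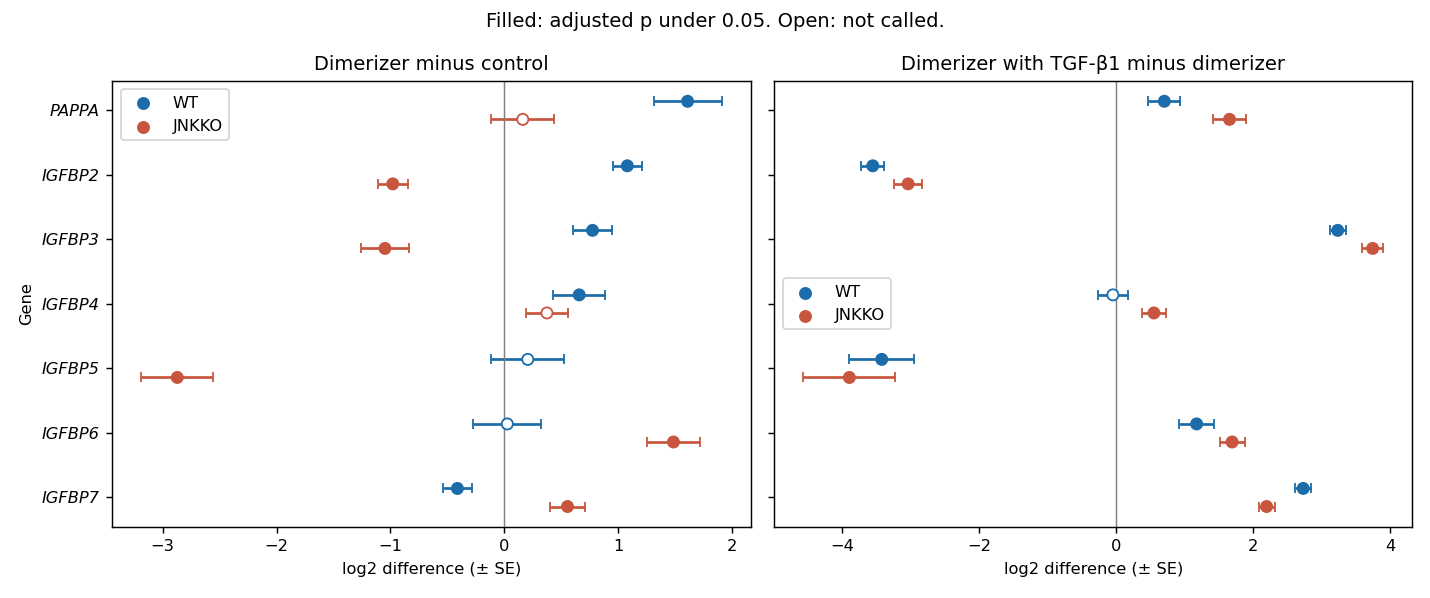
Log2 differences of the 7 tested genes with standard errors, for dimerizer minus control (left) and dimerizer with TGF-β1 minus dimerizer (right), WT in blue and JNKKO in red, filled where the adjusted p is under 0.05. On the left IGFBP2, IGFBP3 and IGFBP7 have filled points on opposite sides of 0 in WT and JNKKO, and on the right no gene has filled points on opposite sides. Both panels use the same dimerizer libraries.

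The response to TGF-β1 was compared between genotypes in the same way. The interaction passed for IGFBP7 (-0.53 ± 0.17, edgeR adjusted p = 0.021) and PAPPA (0.95 ± 0.34, adjusted p = 0.030), 1 of 7 lower and 1 higher, against 18.8% and 14.1% of all genes. The other 5 differences were 0.52 ± 0.31 for IGFBP2, 0.51 ± 0.22 for IGFBP3, 0.60 ± 0.28 for IGFBP4, -0.47 ± 0.93 for IGFBP5 and 0.52 ± 0.32 for IGFBP6 (adjusted p between 0.082 and 0.75). Neither call held in every setting: without the library with the contradicted tag PAPPA had an adjusted p of 0.070 and IGFBP7 of 0.052, and IGFBP6 passed instead (0.81 ± 0.28, adjusted p = 0.043). On log2(TPM + 1) with limma IGFBP7 did not pass (adjusted p = 0.071), while IGFBP2 (0.95, adjusted p = 0.0036), IGFBP4 (0.48, adjusted p = 0.0054) and IGFBP6 (0.78, adjusted p = 0.046) did. With a pseudocount of 0.1 in place of 1, IGFBP2 and IGFBP4 passed (adjusted p = 0.037 and 0.042). IGFBP3 passed in the edgeR fit of only the groups compared (0.51, adjusted p = 0.039), and IGFBP6 with no filter on counts (0.51, adjusted p = 0.0015). None of the 7 passed without JNKKO dimerizer replicate 1 or without JNKKO dimerizer replicate 3.

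JNKKO and WT also differed within a treatment. In control, PAPPA was higher in JNKKO by 1.17 ± 0.32, IGFBP2 by 1.01 ± 0.13, IGFBP4 by 1.45 ± 0.22 and IGFBP5 by 2.22 ± 0.29, and IGFBP7 was lower by 0.90 ± 0.14 (edgeR adjusted p of at most 0.0032), which makes 4 of 7 higher and 1 lower against 25.8% and 23.5% of all genes. PAPPA missed the threshold there on log2(TPM + 1) with limma (adjusted p = 0.19). IGFBP6 did not overlap between genotypes in control but missed the threshold (0.59 ± 0.29, adjusted p = 0.11), and it passed with DESeq2 (adjusted p = 0.047), with the replicate number as a block (adjusted p = 0.049), with no filter on counts (adjusted p = 1.1e-05), with only the groups compared (adjusted p = 0.0041) and with limma on log2(TPM + 1) and log2(TPM + 0.1) (adjusted p = 0.043 and 0.035). IGFBP3 passed only without WT control replicate 1 (0.55, adjusted p = 0.026).

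With dimerizer, IGFBP4 was higher in JNKKO by 1.17 ± 0.19 and IGFBP6 by 2.05 ± 0.24, while IGFBP2 was lower, at -1.05 ± 0.13, and IGFBP3 at -1.53 ± 0.19 (edgeR adjusted p of at most 1.6e-05). These are 2 of 7 higher and 2 lower, against 21.6% and 18.5% of all genes. IGFBP5 was at the edge, with -0.86 ± 0.35 (adjusted p = 0.051). It passed with DESeq2 (adjusted p = 0.049), with no filter (adjusted p = 0.020), with a filter of 1 CPM (adjusted p = 0.042), with only the groups compared (adjusted p = 0.042), without WT dimerizer replicate 1 (adjusted p = 0.021) and without JNKKO dimerizer replicate 1 (adjusted p = 0.039).

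With dimerizer and TGF-β1, IGFBP6 was higher in JNKKO by 2.56 ± 0.19, a mean of 43.0 ± 0.3 CPM against 7.28 ± 2.49 CPM (SD, n = 3; edgeR adjusted p = 8.5e-08), and IGFBP4 by 1.77 ± 0.19 (adjusted p = 6.2e-09). PAPPA was higher by 0.67 ± 0.22 (adjusted p = 0.010), IGFBP3 lower at -1.02 ± 0.10 (adjusted p = 1.1e-09) and IGFBP7 at -0.47 ± 0.10 (adjusted p = 0.00049). That is 3 of 7 higher and 2 lower, against 26.5% and 26.4% of all genes. Without the library with the contradicted tag 2 of 7 were higher, since PAPPA had an adjusted p of 0.052, and 2 lower, with IGFBP6 at 2.86 ± 0.19, IGFBP4 at 1.92 ± 0.22, IGFBP3 at -0.99 ± 0.12 and IGFBP7 at -0.44 ± 0.11. IGFBP2 passed without WT dimerizer with TGF-β1 replicate 2 (-0.79, adjusted p = 0.010). IGFBP4 was higher in JNKKO under all 3 treatments.

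Summed over the 6 genes, binding protein RNA in WT stood at 24.5 ± 1.3 TPM under control, 34.4 ± 2.0 TPM under dimerizer and 98.8 ± 5.7 TPM when TGF-β1 was added (SD, n = 3), and at 31.1 ± 1.5, 35.8 ± 5.4 and 126 ± 8 TPM in the matching JNKKO groups. The TGF-β1 groups did not overlap with any other, and the leading gene changed. IGFBP7 held 46.3% ± 2.9 of the sum in WT control and 69.3% ± 3.1 in WT dimerizer with TGF-β1, while IGFBP2 led in WT dimerizer at 52.1% ± 3.2. IGFBP2 led in JNKKO control at 49.5% ± 3.6, and IGFBP6 led in JNKKO dimerizer at 48.1% ± 3.1 and in JNKKO dimerizer with TGF-β1 at 52.9% ± 1.9. IGFBP6 held 11.6% ± 3.4 in WT dimerizer with TGF-β1. Without the library in doubt, the WT sum with TGF-β1 was 95.6 TPM, with 70.8% from IGFBP7 and 10.02% from IGFBP6. No test was run on the shares.

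**Figure D4:**
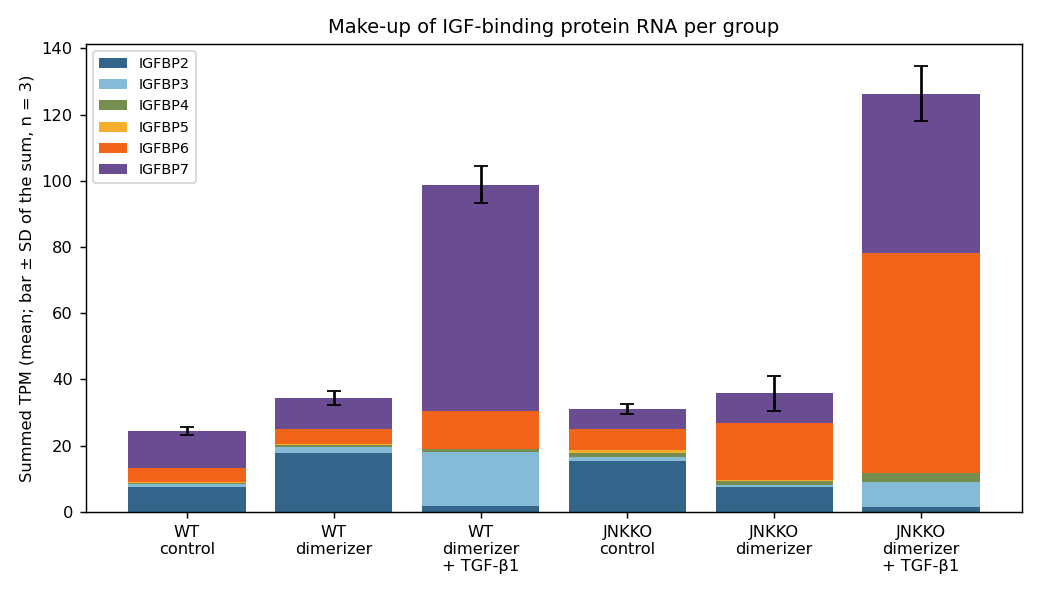
Mean TPM of the 6 binding protein genes stacked per group, with the SD of the sum over 3 libraries as a line. The sum is 98.8 TPM in WT and 126 TPM in JNKKO with TGF-β1 and at most 35.8 TPM elsewhere, with IGFBP7 the largest block in the first and IGFBP6 in the second.

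IGFBP2 reads were split between transcripts of 846 and 1439 bases. The share of the longer in the TPM of the gene, not in its reads, was 50.4% to 80.3% in the 12 libraries without TGF-β1, and 45.9% and 36.0% in 2 WT libraries and 32.1%, 12.6% and 31.9% in the 3 JNKKO libraries with it. All 5 were lower than the 12, but they rest on 16 to 46 counts each, the other WT library was under 1 TPM and was left out, and no test was made.

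The rest of the pathway was read from lists. IGF1 and the insulin gene INS had no more than 1 count in any library, IGFBP1 had 1 count over all 18 libraries, and IGF2 was the one ligand of the family with more than that. IGF1R, the signalling receptor, was in WT at 14.0 TPM under control, 11.8 TPM under dimerizer and 25.9 TPM when TGF-β1 was added, and at 12.04, 11.8 and 22.8 TPM in JNKKO. It fell with dimerizer in WT by 0.35 ± 0.04 (edgeR adjusted p = 3.4e-09), had a difference of 0.00 ± 0.04 in JNKKO (adjusted p = 0.94), and rose with TGF-β1 by 0.97 ± 0.04 and 0.70 ± 0.04 (adjusted p = 2.3e-19 and 7.0e-16). IGF2R rose with TGF-β1 by 0.36 ± 0.04 in WT and 0.12 ± 0.04 in JNKKO, and INSR rose by 0.16 ± 0.05 in WT and fell by 0.29 ± 0.06 in JNKKO (adjusted p of at most 0.0073). Without the WT library in doubt the WT rises were 0.99, 0.36 and 0.16 for IGF1R, IGF2R and INSR, all still called.

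The stanniocalcins STC1 and STC2 bind and inhibit the pappalysins. STC1 held 0.756, 1.39 and 2.62 CPM in WT and 21.3, 23.4 and 21.8 CPM in JNKKO with TGF-β1, higher by 3.799 ± 0.29 in JNKKO (edgeR adjusted p = 8.7e-08), and its response to TGF-β1 differed between genotypes by 2.25 ± 0.45 (adjusted p = 0.0017). The highest of these WT values is the library in doubt, and without it the differences were 4.40 ± 0.28 and 2.85 ± 0.39, and the WT difference from dimerizer moved from -0.35 (adjusted p = 0.45) to -0.93 (adjusted p = 0.032). STC2 held 31.1, 29.1 and 32.8 CPM in JNKKO control and 96.0, 201 and 107 CPM in JNKKO dimerizer, a rise of 2.13 ± 0.25 (adjusted p = 1.4e-05), and its WT difference was 0.15 ± 0.25 (adjusted p = 0.63). The library highest in STC2, JNKKO dimerizer replicate 2, was also the highest in PAPPA2. With TGF-β1 STC2 fell by 1.06 ± 0.26 in WT and 1.47 ± 0.23 in JNKKO (adjusted p = 0.0031 and 0.00011).

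HTRA1, a secreted serine protease that cuts binding proteins among other substrates, rose with dimerizer in JNKKO by 1.14 ± 0.05 (edgeR adjusted p = 1.0e-15) and had a WT difference of 0.03 ± 0.05 (adjusted p = 0.60), and it rose with TGF-β1 by 1.55 ± 0.05 and 1.58 ± 0.05. ADAM12, a membrane protease that cuts IGFBP3 and IGFBP5, rose with TGF-β1 by 2.85 ± 0.13 in WT and 2.26 ± 0.13 in JNKKO (adjusted p = 1.2e-17 and 5.4e-15). Without the library in doubt the WT differences were 1.54 for HTRA1, 2.76 for ADAM12 and -1.11 for STC2, all called. Of 9 listed inhibitors and proteases 7 were tested. With dimerizer 1 rose and 1 fell in WT, where 30.3% of all genes rose and 25.6% fell, and 3 rose and 1 fell in JNKKO, against 22.5% and 17.9%. With TGF-β1 3 rose and 3 fell in WT, against 33.4% and 31.8% of all genes (3 and 4 without the library in doubt), and 4 rose and 3 fell in JNKKO, against 30.5% and 30.3%, with median log2 differences of -0.18 and 0.73 where all genes were at 0.00 and -0.01.

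**Figure D5:**
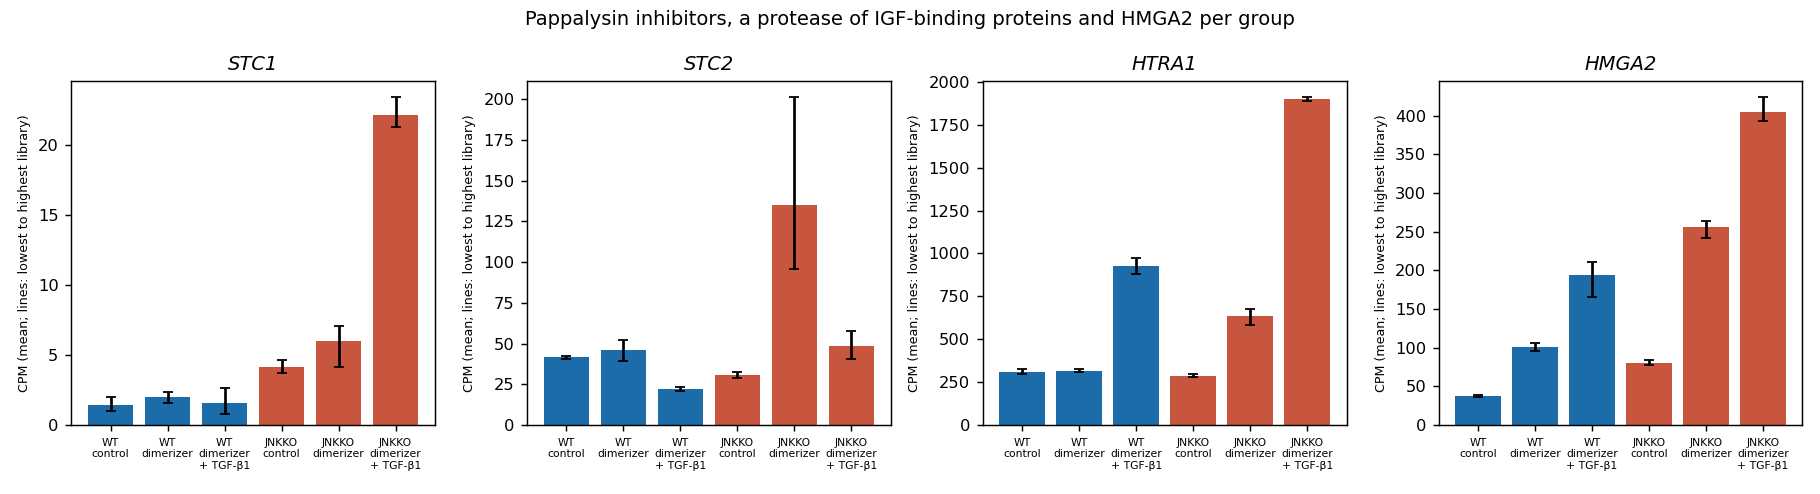
Mean CPM of STC1, STC2, HTRA1 and HMGA2 per group, with lines from the lowest to the highest library, WT in blue and JNKKO in red. STC1 is at 21.3 to 23.4 CPM in JNKKO dimerizer with TGF-β1 and at 0.756 to 2.62 CPM in the WT group, and STC2 is highest in JNKKO dimerizer, with libraries from 96.0 to 201 CPM.

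Of 27 genes of IGF signalling inside the cell 26 were tested, and they moved in both directions. With dimerizer 9 rose and 10 fell in WT, against 30.3% and 25.6% of all genes, and 9 rose and 10 fell in JNKKO, against 22.5% and 17.9%. With TGF-β1 12 rose and 7 fell in WT, against 33.4% and 31.8% of all genes (12 and 6 without the library in doubt), and 10 rose and 8 fell in JNKKO, against 30.5% and 30.3%. The list's medians in WT and JNKKO were 0.06 and 0.01 for dimerizer, then 0.05 and 0.02 for added TGF-β1, where those of all genes were 0.03, 0.01, 0.00 and -0.01. IRS2, an adaptor that links the receptors to PI3-kinase, fell with dimerizer by 1.30 ± 0.06 in WT and rose by 0.57 ± 0.06 in JNKKO (edgeR adjusted p = 1.7e-13 and 2.1e-07), and GRB10, an adaptor that restrains the receptors, rose with TGF-β1 by 1.45 ± 0.05 and 1.01 ± 0.05 (adjusted p = 2.8e-21 and 2.8e-17). Without the library in doubt the GRB10 rise in WT was 1.44.

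Regulators and RNA-binding partners of IGF2 and H19 numbered 15, of which 11 were tested. With TGF-β1 8 rose and 1 fell in WT, against 33.4% and 31.8% of all genes (7 and 1 without the library in doubt), and 7 rose and 1 fell in JNKKO, against 30.5% and 30.3%. The list's medians were 0.26 and 0.38, where those of all genes were 0.00 and -0.01. PLAG1, a zinc-finger factor known to act on IGF2 promoters, rose with TGF-β1 by 1.73 ± 0.15 in WT and 1.27 ± 0.13 in JNKKO (edgeR adjusted p = 2.1e-11 and 7.9e-10). With dimerizer PLAG1 fell by 1.15 ± 0.16 in WT and rose by 1.56 ± 0.16 in JNKKO. Its part in the IGF2 levels was not tested. ZFP57, a factor that guards imprinted methylation, rose with TGF-β1 by 4.67 ± 0.31 and 2.84 ± 0.26, to 2.39 to 3.21 CPM in WT and 2.52 to 3.12 CPM in JNKKO. HMGA2, a chromatin protein, was higher with dimerizer and again with TGF-β1 in both genotypes, at 35.9 to 38.4, 95.4 to 107 and 165 to 211 CPM in WT and 77.4 to 84.6, 242 to 264 and 393 to 424 CPM in JNKKO. Without the library in doubt the WT rises with TGF-β1 were 1.69 for PLAG1, 4.58 for ZFP57 and 0.90 for HMGA2.

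Of 17 other imprinted genes listed, 12 were tested beside H19, and in JNKKO control against WT control 3 were higher and 5 lower, against 25.8% and 23.5% of all genes. CDKN1C, a cell cycle inhibitor on the same chromosome arm, was lower there by 1.83 ± 0.11 and KCNQ1OT1, an imprinted noncoding RNA, by 1.13 ± 0.08 (edgeR adjusted p = 7.7e-09 and 2.6e-10). Both are among the 5 lower genes, and SNRPN had the smallest adjusted p of the 12 in this comparison. Of 13 listed neighbours of IGF2 and H19 on the chromosome 7 were tested. In JNKKO control 5 were higher than in WT control and none lower, against 25.8% and 23.5% of all genes. The differences were, for TNNI2, a troponin gene, 1.73 ± 0.05 (edgeR adjusted p = 1.6e-20) and, for MRPL23, a mitochondrial ribosome gene beside H19, 0.27 ± 0.05 (adjusted p = 4.3e-05). With TGF-β1 MRPL23 fell by 0.48 ± 0.05 in WT and by 0.23 ± 0.05 in JNKKO, and by 0.51 in WT without the library in doubt.

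The genes most like IGF2, H19 and PAPPA2 were taken by Pearson's r of log2 CPM over the 18 libraries, among 11175 genes with a highest group mean of at least 5 CPM, as a description with no p. For IGF2 they were NCK2, an adaptor (r = 0.992), APBB2 (0.991), BMP1, a procollagen protease (0.990), CHD3 (0.990) and HS3ST3B1, a heparan sulfate enzyme (0.990). For H19 they were LY6E (0.961), CTDNEP1 (0.935), ADGRF1 (0.932), FANCG (0.922) and CRABP2, a retinoic acid carrier (0.920). For PAPPA2 they were ADM2, a peptide hormone (0.954), TARS, a tRNA ligase (0.946), TMEM265 (0.942), TIPRL (0.940) and CBS, an enzyme of sulfur amino acids (0.936). ADM2 had group means of 0.237, 2.32 and 1.19 CPM in WT and 0.520, 10.1 and 5.03 CPM in JNKKO, in the order control, dimerizer, dimerizer with TGF-β1. The 18 points share 6 groups, and each pair of values shares a library and its depth.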

How the data were processed

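The deposited tables hold expected counts (a median of 9.35% per library not whole) and TPM, per the file headers. The submitters' processing notes name RSEM, cutadapt and hg38. Aligner, annotation, tool versions and strand setting: not given in the sources used here. Of 42141 genes, 42125 matched GENCODE 29, and 127 altered names were restored. Libraries were grouped by title. Expected counts were rounded and fitted with the edgeR 4.0.16 quasi-likelihood test (TMM, filterByExpr, 1 mean per group, 18 libraries, 12 residual degrees of freedom) in R 4.3.3, and p-values were adjusted with the Benjamini-Hochberg method over 16911 genes, with a threshold of 0.05. Standard errors were taken as the absolute log2 difference over the root of F. All 10 members passed the filter, IGF2 through its TGF-β1 groups. A floor is 3 counts over a group. CPM used TMM-scaled totals. Tests were checked on simulated data with the same spread for every gene, in JNKKO dimerizer against JNKKO control only. That check did not cover the interactions or genes of larger spread. DESeq2 1.42.0 and limma 3.58.1 on log2(TPM + 1) and log2(TPM + 0.1) were alternatives, with other filters and size factors, only the compared groups and each library left out. Members, lists and motifs were chosen with earlier results of these data known. All members are named, and of each list mainly those among the 3 smallest adjusted p in a comparison. Promoter and miRNA sequences are from RefSeq, GRCh38.p14. Python 3.11.15, pandas 2.3.3 and matplotlib 3.10.9 were used.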

Additional observations from a re-analysis of the deposited data

Results flagged for a closer look

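The response to dimerizer differed between JNKKO and WT by the interaction test of edgeR (Benjamini-Hochberg adjusted p in parentheses) for IGFBP2, at -2.06 ± 0.18 on the log2 scale (7.1e-10), IGFBP3, at -1.82 ± 0.27 (3.4e-06), IGFBP5, at -3.08 ± 0.45 (3.3e-06), IGFBP6, at 1.46 ± 0.38 (0.0072), IGFBP7, at 0.97 ± 0.20 (0.00074), and PAPPA, at -1.45 ± 0.41 (0.0052). IGFBP2, IGFBP3 and IGFBP7 moved in opposite directions in the 2 genotypes, each past the threshold in both. The IGFBP7 fall in WT missed the threshold without WT control replicate 2 or WT dimerizer replicate 2 and in the limma fits of TPM (adjusted p from 0.054 to 0.16), and the PAPPA interaction missed it with limma on log2(TPM + 1) (adjusted p = 0.15). The response to TGF-β1 differed for IGFBP7, at -0.53 ± 0.17 (0.021), and PAPPA, at 0.95 ± 0.34 (0.030), and both calls were lost when some single libraries were left out.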

How the results depend on the processing

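Of 63 log2 differences (7 tested members in 9 comparisons), 40 kept their direction and their side of the threshold under all alternatives run. RLE size factors changed none of the 63. The count of called members moved from 2 to 4 in the interaction with TGF-β1 on log2(TPM + 1) with limma, and leaving out 1 library gave 0 to 2 there and 3 to 5 for dimerizer in WT, where 5 were called. These differences changed sign, and none was called before or after. On log2(TPM + 1) with limma they were IGFBP4 with TGF-β1 in WT (0.042, and 0.082 with a pseudocount of 0.1), IGFBP7 in JNKKO dimerizer against WT dimerizer (-0.067, and -0.075 with 0.1) and, for the interaction with TGF-β1, IGFBP3 (-0.19) and IGFBP5 (0.11, and 0.42 with 0.1); the values with no filter were equal to those with it. IGFBP6 with dimerizer in WT was -0.0040 with a filter of at least 1 CPM in 3 libraries and -0.0012 with only the groups compared. Leaving out 1 library, IGFBP5 with dimerizer in WT ranged from -0.12 to 0.42, IGFBP6 there from -0.12 to 0.25, PAPPA with dimerizer in JNKKO from -0.066 to 0.29, IGFBP4 with TGF-β1 in WT from -0.19 to 0.095, IGFBP7 in JNKKO dimerizer against WT dimerizer from -0.013 to 0.21, and IGFBP5 in the interaction with TGF-β1 from -1.33 to 0.44. The cause was not tested. Where 1 library is left out of a group of 3, the fit pools the spread over all groups. PAPPA, PAPPA2, IGFBP3, IGFBP4, IGFBP5 and IGF2 held under 100 counts in most libraries, which limits them.

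Replicate numbers did not pair the libraries: over 45 same-numbered pairs the correlation of deviations ran from -0.062 to 0.077, and 8 of 18 libraries were closest to their own number. With the replicate block the number of genes called was 9469 against 9451 for dimerizer in WT, and 1 of the 63 member results changed, IGFBP6 in JNKKO control against WT control, at 0.59 with an adjusted p of 0.049.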
